A study of Mus musculus with 4 samples.

Results

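The proteasome subunit genes were described in mouse natural killer (NK) cells, innate lymphocytes that kill infected or transformed cells. They were taken as the GENCODE protein-coding genes of mouse named Psma to Psmg with a number, leaving out Psmb8 and Psmb9, which gave 48 of 21728 genes (chromosomes 1 to 19 and the X chromosome). The 48 comprise 14 genes of the constitutive core particle, 17 of the regulatory particle, 7 assembly factors, 5 activators, 1 inhibitor, 1 immunoproteasome, 1 thymus-specific and 1 testis-specific subunit. The remaining gene, Psmc3ip, matched by name and was kept, but it encodes a meiotic recombination factor and no subunit. The assay was DNase-seq, in which dense cutting by the nuclease DNase I marks accessible DNA and short protected stretches inside it, footprints, mark bases that are cut less than their surroundings. The 4 libraries, called libraries 1 to 4 after their biological replicate numbers, form a single group. They came from primary NK cells of 2-month-old female B6CASTF1/J mice, a first-generation hybrid of C57BL/6J and CAST. The tissue, the sort and any treatment are not given in the labels, and the libraries have separate biosamples but 1 donor identifier, so the SD over libraries may be partly technical. With 1 group no condition was compared, and an exact sign-flip test over 4 libraries has 16 sign patterns, 2 of which are extreme, so it cannot reach p = 0.05, and the values are descriptions with their spread.

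The proteasome is the protease that degrades ubiquitin-tagged proteins. Its barrel-shaped 20S core is built from stacked rings of alpha subunits (Psma genes), which gate the entrance, and beta subunits (Psmb genes), some of which carry the catalytic sites. The 19S regulatory particle caps the barrel, where its ATPases (Psmc genes) unfold the substrate and its non-ATPase subunits (Psmd genes) bind and remove ubiquitin. Under interferon the catalytic subunits can be replaced by Psmb8, Psmb9 and Psmb10, giving the immunoproteasome, which produces peptides suited to presentation on MHC class I. Other tissue forms are the thymoproteasome, with Psmb11 in cortical thymic epithelium, and the testis form, with Psma8.

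The libraries held between 36285 and 69168 peaks, with the most in library 3 and the fewest in library 4, and between 96002 and 185155 footprints. The number of reads behind them is unknown, so no counting interval or detection floor could be given. The signal of a promoter is the authors' signal value of the strongest peak within 1 kb of the gene 5' end, and its scale between libraries is not stated. Of the NK cell markers examined, 5 of 7 had a promoter peak in at least 3 libraries, namely Ncr1, Nkg7, Prf1, Eomes and Il2rb. Tbx21 had a peak in 2 libraries, with 1.30 in library 2 and 1.58 in library 3. Klrb1c had one in 1 library, with 2.67 in library 3. Among markers of other cells this held for 1 of 4 T cell genes and 0 of 3 myeloid genes, with Cd3e, Cd8a and Lyz2 at 0 in every library. At any annotated transcript start it held for 2 of 4 T cell genes, since Cd3d was open at another start with 4.90, 5.80, 11.2 and 5.87 in libraries 1 to 4 (6.95 ± 2.89), a mean exceeded among the NK cell markers by that of Il2rb (7.73 ± 3.91). The T cell gene Cd3g, with a peak in 3 libraries, had a low signal of 0.409 ± 0.276, as did the B cell genes Pax5 (4 libraries) at 0.962 ± 0.449 and Ms4a1 (3 libraries) at 0.530 ± 0.377 (SD, n = 4). Cd79a, another B cell gene, had a peak in 2 libraries, and Pax5 reached 3.66 ± 0.873 at another annotated start. All 5 open NK cell markers were highest in library 3. There Ms4a1 and Cd79a had no peak and Pax5 had its lowest promoter signal, 0.532, against 0.646, 1.48 and 1.19 in libraries 1, 2 and 4. Cd79a had no peak in library 1 either. The T cell genes Cd3g (0.598) and Cd3d (11.2, at its other start) were also highest in library 3. So were 78.8% of all genes with a peak in all 4 libraries. The part of other cells in the promoter signals below was not tested.

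Promoter sequences are shown for 4 members before their values. Psma2, an alpha ring gene, had the highest promoter signal, Psmb3, a beta ring gene, was tied for the most shared footprints, Psmb5 encodes the chymotrypsin-like catalytic subunit, and Psmg1, a core assembly factor, held the longest shared footprint. The sequences are from RefSeq on GRCm38.p6 (mm10), 250 bases before to 50 bases after the annotated start, written 5' to 3' on the gene's strand. Capitals mark bases inside a footprint shared by at least 3 of the 4 libraries over at least 6 bases in a row within the printed sequence. A shared footprint cut shorter by its edge, as at the first bases of Psma2, is in lower case and not counted.
Psma2, chr13:14612992-14613291, plus strand: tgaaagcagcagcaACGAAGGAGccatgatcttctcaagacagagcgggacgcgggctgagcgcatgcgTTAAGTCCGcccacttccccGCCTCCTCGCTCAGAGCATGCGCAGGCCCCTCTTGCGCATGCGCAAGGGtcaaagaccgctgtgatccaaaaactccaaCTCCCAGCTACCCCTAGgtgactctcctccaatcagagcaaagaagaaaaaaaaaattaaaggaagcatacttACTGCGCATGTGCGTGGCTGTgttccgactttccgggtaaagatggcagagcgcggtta
Psmb3, chr11:97703184-97703483, plus strand: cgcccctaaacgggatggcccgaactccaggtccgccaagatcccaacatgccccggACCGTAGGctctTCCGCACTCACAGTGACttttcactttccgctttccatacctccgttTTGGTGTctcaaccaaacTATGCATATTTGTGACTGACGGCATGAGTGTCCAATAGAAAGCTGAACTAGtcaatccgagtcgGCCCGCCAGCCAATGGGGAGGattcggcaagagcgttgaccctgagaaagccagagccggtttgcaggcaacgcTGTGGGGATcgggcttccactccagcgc
Psmb5, chr14:54617946-54618245, minus strand: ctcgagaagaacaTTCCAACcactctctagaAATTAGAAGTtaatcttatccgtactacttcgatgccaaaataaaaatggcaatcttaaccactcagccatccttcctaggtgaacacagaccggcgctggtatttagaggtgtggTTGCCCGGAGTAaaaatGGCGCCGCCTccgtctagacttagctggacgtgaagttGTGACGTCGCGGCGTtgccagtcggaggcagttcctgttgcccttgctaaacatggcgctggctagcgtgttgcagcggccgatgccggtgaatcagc
Psmg1, chr16:95990911-95991210, minus strand: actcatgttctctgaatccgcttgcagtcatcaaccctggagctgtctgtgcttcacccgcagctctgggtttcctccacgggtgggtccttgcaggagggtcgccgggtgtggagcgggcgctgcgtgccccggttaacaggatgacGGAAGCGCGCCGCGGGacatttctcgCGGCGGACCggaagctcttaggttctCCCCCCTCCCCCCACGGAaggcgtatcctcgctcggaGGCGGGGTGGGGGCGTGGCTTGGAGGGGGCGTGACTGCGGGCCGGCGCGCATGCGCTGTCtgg
Shared footprints filled 105 of the 300 bases at Psma2, 113 at Psmb3, 54 at Psmb5 and 103 at Psmg1. The start of Psma2 lies 75 bp from that of Mrpl32, a mitochondrial ribosomal protein gene on the opposite strand, so the Psma2 sequence also holds the start region of Mrpl32.

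A recurrent promoter peak, meaning a peak within 1 kb of the gene 5' end in at least 3 of 4 libraries, was present at 41 of the 48 genes (85.4%), against 50.4% of all protein-coding genes. At each of these 41 genes the peak was present in all 4 libraries, and the other 7 genes had no peak in any library. All 7 beta ring genes, all 6 ATPase genes, all 11 non-ATPase genes and all 4 core assembly factors (Psmg1 to Psmg4) were open, as were 6 of the 7 alpha ring genes. Of the chaperones that assemble the regulatory particle, 1 of 3 was open at the gene 5' end, and 4 of the 5 activators were. The inhibitor Psmf1, the thymus-specific Psmb11 and the testis-specific Psma8 were not open at the gene 5' end. For comparison, 74 of 77 cytosolic ribosomal protein genes (96.1%) and 75 of 78 mitochondrial ribosomal protein genes (96.2%) had a recurrent promoter peak.

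The 7 genes without a peak fell into 2 kinds when every annotated transcript start was considered. Psma6, Psmd5, Psmd9 and Psmf1 were open at another annotated start in all 4 libraries, which brought the count to 45 of 48 genes (93.8%), against 54.9% of all protein-coding genes. The gene 5' end used here is the outermost annotated GENCODE start. The RefSeq promoter set used for the sequences holds 1 start each for Psmd5, Psmd9 and Psmf1, and it is the open one. Whether the outermost starts of these genes are in use was not tested. Psmb11, Psma8 and Psme2b were open at no annotated start.

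Psma6, an alpha ring gene, had a peak at a start 14553 bp downstream of the gene 5' end, in the region chr12:55398601-55398900 whose centre lies in an intron of the gene as annotated from its outermost start. The signal there was 3.94, 5.23, 6.88 and 5.39 in libraries 1 to 4, a mean of 5.36 ± 1.20. Psmd9, a chaperone of the ATPase ring, was open 58777 bp downstream, at chr5:123228121-123228320 with its centre in an untranslated or non-coding exon. Its signals were 5.26, 6.79, 8.73 and 5.02, a mean of 6.45 ± 1.71. Psmd5, another such chaperone, was open 4006 bp downstream, at chr2:34870901-34871340, with signals of 5.88, 7.52, 9.09 and 6.55 and a mean of 7.26 ± 1.39. Psmf1, which encodes the inhibitor PI31, was open 2876 bp downstream, at chr2:151741181-151741460, with signals of 3.43, 3.53, 4.24 and 2.76 and a mean of 3.49 ± 0.605 (SD, n = 4 throughout). These levels lay within the range of the 41 genes open at their 5' end. No other protein-coding gene started within 1 kb of these 4 open starts.

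Psmb11 (chr14, 5' end at 54621433, plus strand), Psma8 (chr18, 14706151, plus strand) and Psme2b (chr11, 48946190, minus strand), a retrogene copy of the activator gene Psme2, had no peak and no footprint within 1 kb of the 5' end in any library. The authors' lists of bases with a false discovery rate below 0.05, which at some genes hold bases where no peak was called, also held 0 bases within 1 kb of the 5' end of these 3 genes and of the other 4 genes without a peak there. Among all 9434 genes that lacked a promoter peak throughout, 4.28% held at least 1 listed base in some library. Psme2b is a near-copy of Psme2, so its lack of a peak is uncertain: how the authors' filter treated reads that map to both genes is not described in the sources used here.

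**Figure D1:**
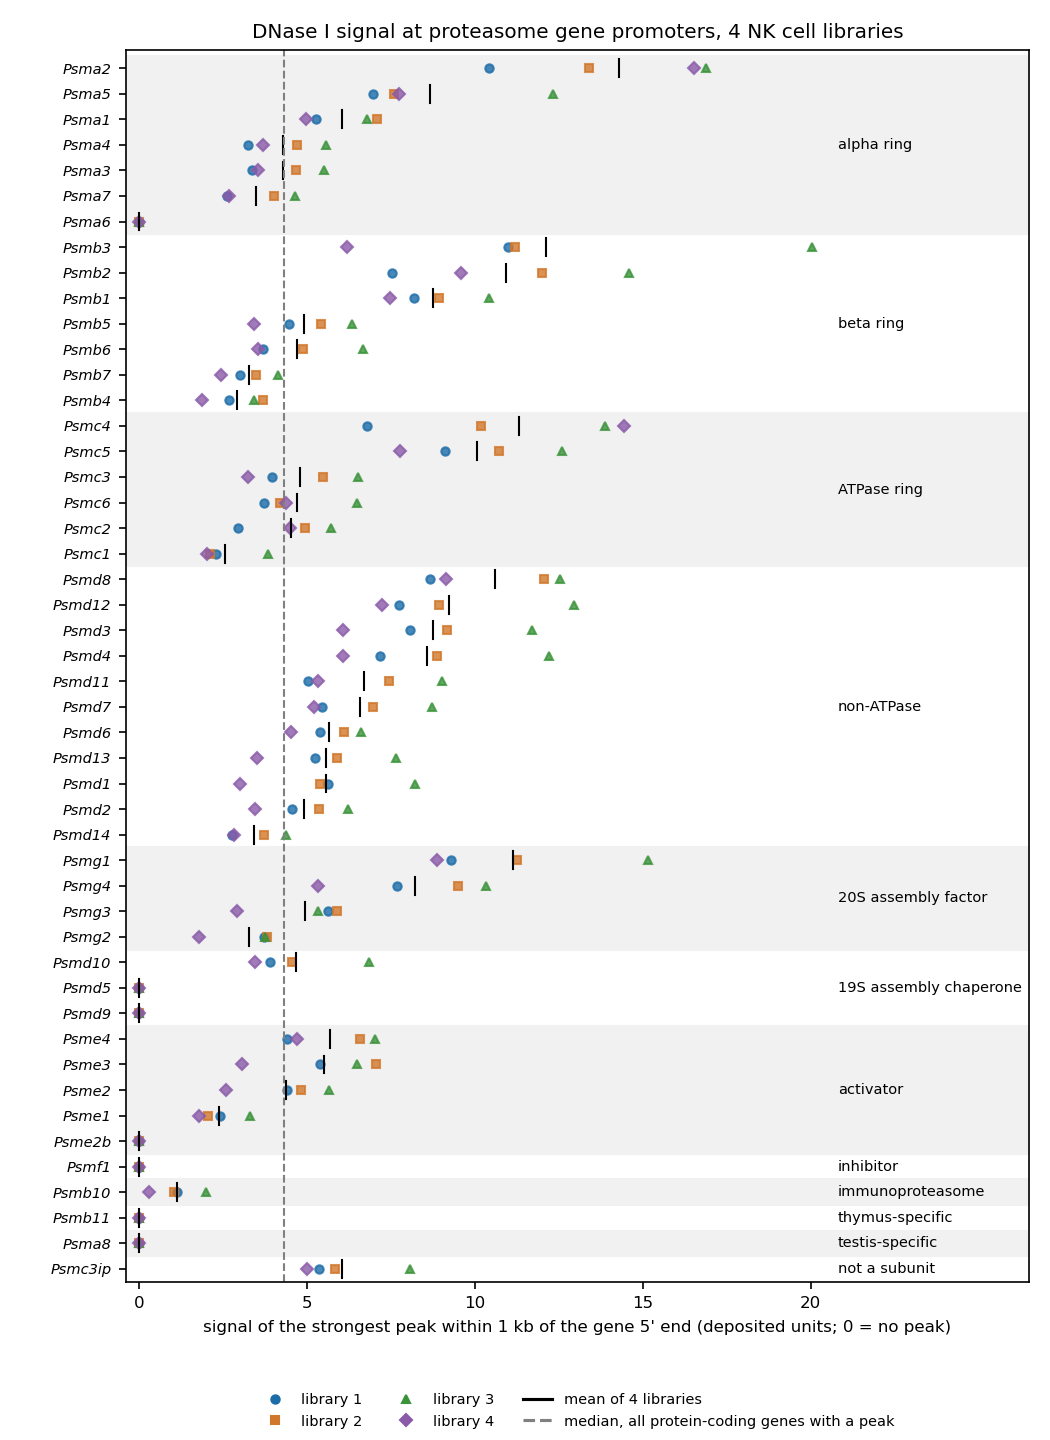
Promoter signal of the 48 genes, by class. Each symbol is 1 library, the black bar is the mean of 4 libraries, 0 means that no peak lay within 1 kb of the gene 5' end, and the dashed line is the mean over libraries of the median of all protein-coding genes with a peak (4.32). Psma2 reached a mean of 14.3 and Psmb10 1.11, and 7 genes sit at 0 in all 4 libraries.

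The promoters of the open proteasome genes had a median signal of 5.23, 5.88, 6.79 and 4.37 in libraries 1 to 4, against 3.76, 4.60, 5.28 and 3.63 for all protein-coding genes with a peak in that library. The members' median was the higher value in each library, by a factor of 1.29 ± 0.0769 (SD, n = 4). Between libraries the level moved more than this, since library 3 gave the highest value at 35 of the 41 members (85.4%) and at 78.8% of all genes with a peak in all 4 libraries. The signal in library 3 was 1.44 times the mean of the other libraries at the median member, 1.42 times at the median of all such genes and 2.21 times at the median of the 5 open NK cell markers. The median coefficient of variation over libraries was 27.6% for the members and 25.9% for all such genes. The order of the 41 members was similar between libraries, with a Spearman rho of 0.824 (libraries 1 and 4) to 0.940 (libraries 1 and 2). For all 10334 genes rho was 0.937 to 0.984 for the same pairs. The points of each correlation are genes within libraries of different peak number, and genes are not independent replicates.

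Ranked among all 10944 open promoters by mean signal, the members had a median percentile of 58.1, with 29 of 41 above the middle of all open promoters and 13 above the 75th percentile. Psma2 and Psmb3, at percentiles 95.6 and 90.9, were the 2 above the 90th, and Psmb10, at percentile 12.6, was the 1 below the 25th. The cytosolic ribosomal protein genes had a median signal of 7.75 ± 1.86, which is 1.78 ± 0.140 times that of all open genes, and the mitochondrial ones 4.76 ± 1.30, or 1.09 ± 0.106 times (SD, n = 4). In each of the 4 libraries the median of the proteasome genes thus lay below that of the cytosolic and above that of the mitochondrial ribosomal protein genes.

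**Figure D2:**
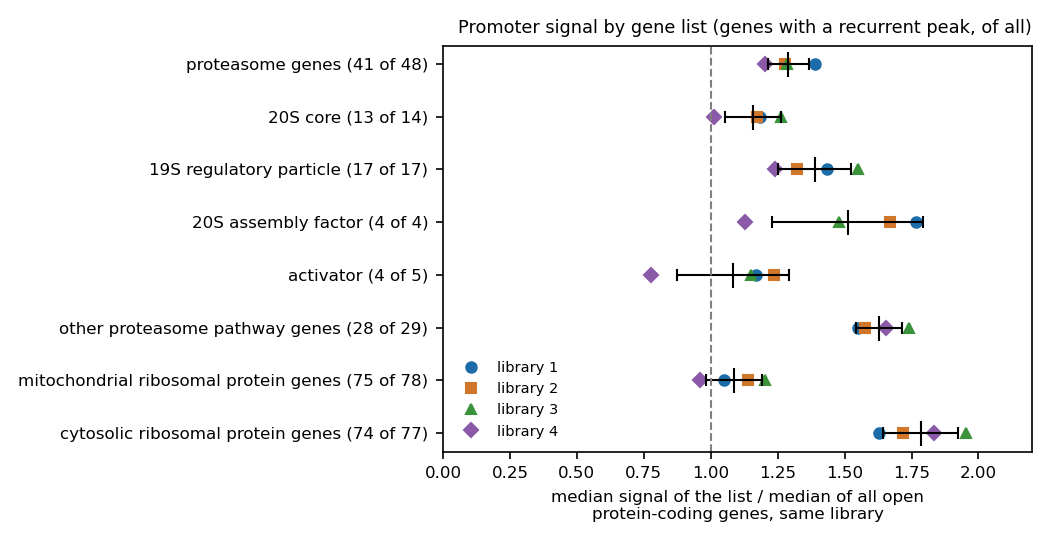
Median promoter signal of each list divided by the median of all protein-coding genes with a peak in the same library. Symbols are libraries, the vertical tick and bar are the mean and SD over 4 libraries, the dashed line is the level of all open genes, and the numbers in parentheses give genes with a recurrent peak. The proteasome genes lie at 1.29, the 20S core at 1.16, the 19S regulatory particle at 1.39 and the cytosolic ribosomal protein genes at 1.78.

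Within the 20S core, Psma2 (chr13, 5' end at 14613240, plus strand) had signals of 10.4, 13.4, 16.9 and 16.5 in libraries 1 to 4, a mean of 14.3 ± 3.02. It was the highest or second-highest of the 41 members in every library. Its open region, chr13:14612981-14613240, lay upstream of the gene, reached to the Psma2 start itself and extended past the Mrpl32 start, so the peak cannot be assigned to 1 of the 2 genes. Among the other alpha ring genes, Psma5 had 6.96, 7.57, 12.3 and 7.75 (8.65 ± 2.48), and Psma7 was the lowest open one with 2.61, 4.01, 4.63 and 2.68 (3.48 ± 0.998).

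The beta ring genes spanned a similar range. Psmb3 (chr11, 5' end at 97703399, plus strand) had 11.0, 11.2, 20.1 and 6.18, a mean of 12.1 ± 5.78. Its spread of 47.8% of the mean was the second largest of the 41 members, and it ranked first among them in libraries 1 and 3 but was at rank 10 in library 4. Psmb2 had 7.53, 11.99, 14.6 and 9.57 (10.9 ± 3.05). Psmb4 was the lowest beta ring gene, with 2.68, 3.68, 3.41 and 1.85 (2.90 ± 0.816).

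The 3 catalytic subunits of the constitutive core were not among the strongly open genes. Psmb5, which carries the chymotrypsin-like activity, had 4.45, 5.40, 6.32 and 3.41 (4.90 ± 1.25). Psmb6, with the caspase-like activity, had 3.69, 4.86, 6.66 and 3.53 (4.69 ± 1.45). Psmb7, with the trypsin-like activity, had 3.00, 3.48, 4.14 and 2.43 (3.26 ± 0.724). All 3 were open in every library, Psmb7 gave the lowest value of the 3 in each, and the ranges of the 3 genes over libraries overlapped.

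Psmb10, the immunoproteasome counterpart of Psmb7, had the weakest promoter of the open members, with 1.13, 1.03, 1.97 and 0.298 and a mean of 1.11 ± 0.684. It was last of the 41 members in each library. Its region, chr8:105937861-105938280, was centred 374 bp downstream of the gene 5' end and did not reach it. A stronger region, chr8:105937001-105937360, lay at another annotated start 1406 bp downstream and had 2.42, 2.79, 4.83 and 1.86, a mean of 2.98 ± 1.29. That region was above the 5' region of Psmb10 in every library. Its mean was still below those of Psmb5, Psmb6 and Psmb7, but its library 3 value, 4.83, was above that of Psmb7, 4.14. Outside the 48 genes, the other immunoproteasome genes Psmb9 and Psmb8 had means of 10.8 ± 3.47 and 4.10 ± 1.71 (SD, n = 4). The region of Psmb9 was centred 243.5 bp downstream of its gene 5' end and did not reach it.

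All 17 genes of the 19S regulatory particle were open. Psmc4, an ATPase gene (chr7, 5' end at 28050101, minus strand), was the highest with 6.77, 10.2, 13.9 and 14.4, a mean of 11.3 ± 3.57. It was the 1 member whose highest value fell in library 4, and its rank among the 41 ranged between 2 and 13. Psmc1, another ATPase gene, was the lowest with 2.28, 2.10, 3.84 and 2.03 (2.56 ± 0.856). The ranges of Psmc4 and Psmc1 over libraries did not overlap, but both genes were picked as the extremes by these same values.

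Among the non-ATPase subunits, Psmd8 had the highest signal, with 8.65, 12.1, 12.5 and 9.14 (10.6 ± 1.98). Psmd14, the deubiquitinase that removes ubiquitin chains from the substrate, had the lowest, with 2.75, 3.71, 4.36 and 2.82 (3.41 ± 0.770). The ubiquitin receptor gene Psmd4 lay at 8.58 ± 2.68, and the scaffold genes Psmd1 and Psmd2 at 5.55 ± 2.13 and 4.89 ± 1.18. Of the 11 non-ATPase genes 10 were above the middle of all open promoters, as were 4 of the 6 ATPase genes.

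The median over the 20S core genes was 4.45, 5.40, 6.66 and 3.68 in libraries 1 to 4, against 5.39, 6.09, 8.20 and 4.51 over the 19S genes, a ratio of 0.835 ± 0.0343 (SD, n = 4). The core median was the lower one in all 4 libraries. With means in place of medians the ratio was 1.02 ± 0.0161, with the core slightly above the regulatory particle, so no order of the particles is given.

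The core assembly factors included Psmg1 (chr16, 5' end at 95990960, minus strand), with 9.30, 11.2, 15.2 and 8.86 and a mean of 11.1 ± 2.87. Psmg2, which acts as a partner of Psmg1, was much lower, with 3.70, 3.79, 3.75 and 1.78 (3.25 ± 0.985). The lowest value of Psmg1 was above the highest of Psmg2, but both were picked as the extremes of the core assembly factors by these same values. The chaperone Psmd10 on the X chromosome had 3.88, 4.54, 6.85 and 3.43 (4.68 ± 1.52).

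The activators open the core in place of the regulatory particle. Psme1 and Psme2, whose products form the interferon-inducible PA28 ring, had 2.39, 2.05, 3.29 and 1.78 (2.38 ± 0.657) and 4.41, 4.81, 5.66 and 2.59 (4.37 ± 1.30). Psme1 was thus among the lowest 3 members in each library, at ranks 39 and 40 of 41, and its region was centred 338 bp downstream of the gene 5' end. Psme4, which encodes PA200, was the highest activator gene with 4.40, 6.58, 7.02 and 4.68 (5.67 ± 1.32), and Psme3, which encodes the nuclear PA28 gamma, had 5.49 ± 1.77. Psmc3ip, no subunit, had 5.35, 5.82, 8.05 and 4.98 (6.05 ± 1.38).

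Genes that act with the proteasome were taken as a list of 30 names, of which 29 matched a protein-coding gene. It covers ubiquitin genes, shuttle factors, further subunits, maturation factors and regulators of transcription. Of these, 28 had a recurrent promoter peak (96.6%) and the 29th, the deubiquitinase gene Usp14, was open at another start in all 4 libraries. Their median signal was 7.07 ± 1.55, which is 1.63 ± 0.0859 times that of all open genes. The highest was the shuttle factor gene Rad23b at 21.9 ± 6.65 and the lowest Ecpas at 1.44 ± 0.156. Nfe2l1, which encodes the transcription factor that raises proteasome gene expression when the protease is inhibited, had 9.62, 11.7, 17.3 and 10.8 (12.4 ± 3.42), and its relative Nfe2l2 had 11.6 ± 3.66 (SD, n = 4). The core maturation factor gene Pomp, at 4.50 ± 0.320, and the regulatory particle gene Sem1, at 3.73 ± 0.668, lay lower.

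The open regions of the members sat close to the annotated start. The region with the highest signal covered the gene 5' end at 38 of 41 members (92.7%), against 74.4% of all open protein-coding genes, 82.4% of the cytosolic and 82.7% of the mitochondrial ribosomal protein genes. All 13 open core genes were covered, and the exceptions among the members were Psmd13, Psmb10 and Psme1. The RefSeq starts of Psmd13 and Psme1, 426 and 371 bp from the GENCODE 5' end, lay inside their regions, and that of Psmb10 did not. The centre lay within 200 bp of the 5' end at 36 of 41 members (87.8%), against 74.8% of all open genes. The median width was 260 bp for the members and 280 bp for all open genes. The centre lay upstream of the gene at 23 members, in an untranslated or non-coding exon at 15, in a coding exon at 2 and in an intron at 1. The number of low-FDR bases within 1 kb was 886 ± 127 at the median member with a peak and 876 ± 154 at the median open gene, a difference smaller than the spread between libraries.

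A start of another protein-coding gene on the opposite strand lay within 1 kb upstream of 8 of the 48 members (16.7%), against 6.81% of all protein-coding genes. Among open genes alone the shares were 8 of 41 (19.5%) and 12.6%. The pairs were Psmc2 with Dnajc2 (32 bp apart), Psma2 with Mrpl32 (75 bp), Psmc5 with Ftsj3 (75 bp), Psma7 with Ss18l1 (76 bp), Psmb1 with Tbp (137 bp), Psmd10 with Atg4a (179 bp), Psmg2 with Cep76 (263 bp) and Psme2 with Rnf31 (595 bp). Tbp encodes the TATA-binding protein. For the mitochondrial ribosomal protein genes the share was 23.1% and for the cytosolic ones 10.4%. Starts on the opposite strand that lie downstream of the gene 5' end were not counted, so the pairs may be incomplete. Which gene of such a pair the promoter signal belongs to was not tested.

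Footprints within 1 kb of the 5' end were found in at least 3 libraries at 41 of 48 members (85.4%), all of them among the 41 with a recurrent peak, against 48.4% of all protein-coding genes. These shares are close to those of the recurrent peak, 85.4% and 50.4%, and are not independent of them. An open member had a median of 6.5 footprints per library and an open gene a median of 6.0. The most were found at Psmd3, a non-ATPase gene, with 11, 13, 11 and 10 in libraries 1 to 4. Psmd13 followed with 11, 12, 13 and 8, Psme3 with 9, 9, 19 and 7, Psme2 with 8, 10, 18 and 8, and Psma3 with 8, 10, 13 and 8. Psmb6 had the fewest of the open members, with 1, 2, 4 and 2. Library 3, with the most footprints in total, gave the highest count at Psmd13, Psme3, Psme2, Psma3 and Psmb6, but not at Psmd3. Across the 41 members, footprint number and promoter signal had a Spearman rho of 0.320, where both come from the same libraries.

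Stretches of at least 6 bases inside a footprint in at least 3 libraries, the shared footprints capitalised above, numbered 169 within 1 kb of the 41 open members. They were found at 39 members, with a median of 4 and a maximum of 9, reached by Psmd3 and Psmb3. Shared footprints within 1 kb were not counted for all open genes, so these numbers have no comparison. Psmb10 and Psme1 had none. The longest was 60 bp at Psmg1, between 13 bp upstream and 46 bp downstream of the gene 5' end. Others of 51 bp lay at Psmb3, between 81 and 31 bp upstream, and at Psmg4, between 36 bp upstream and 14 bp downstream. At Psma2 a shared footprint of 49 bp lay between 159 and 111 bp upstream.

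Shared footprints were densest in the last 100 bp before the 5' end, where they filled 25.9% of the members' bases and were present at 36 of 41 members (87.8%). For all open genes the values were 18.4% of bases and 63.4% of genes. In the first 100 bp downstream they filled 13.4% of bases in the members and 9.61% in all open genes. Further upstream the values came close, with 3.68% of bases for the members and 3.56% for all open genes between 300 and 201 bp.

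**Figure D3:**
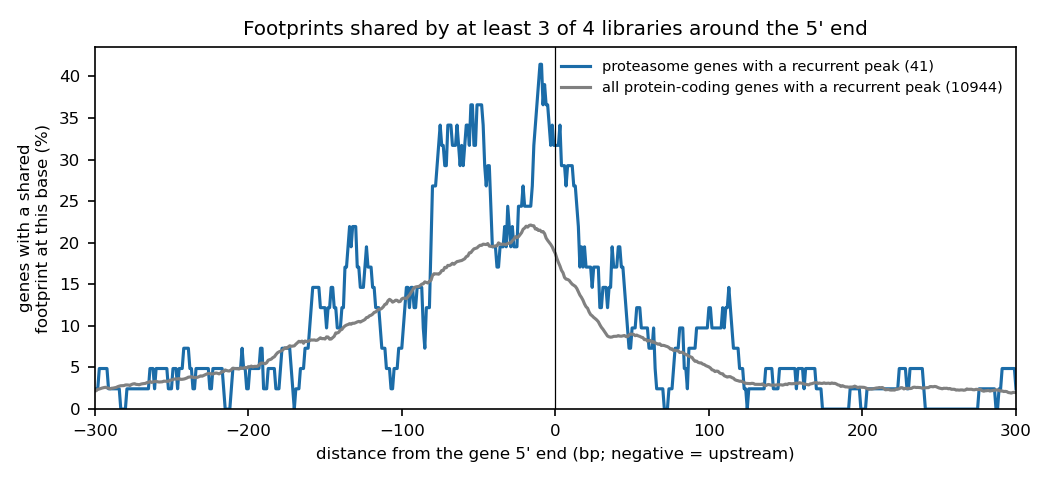
Share of genes with a shared footprint at each base from 300 bp upstream to 300 bp downstream of the gene 5' end. The blue line is the 41 proteasome genes with a recurrent peak and the grey line all 10944 protein-coding genes with one. In the 100 bp upstream of the 5' end the blue line averages 25.9% and the grey line 18.4%, and 1 gene is 2.44% of the blue line, so its steps are coarse.

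The promoter sequences were searched for 12 short motifs on both strands. Of the 48 members 40 were in the RefSeq promoter table, and at 37 of them a peak overlapped the promoter in at least 3 libraries. Psmb1, Psmb2, Psmb7, Psmc3, Psmd3, Psmd7, Psma8 and Psmg2 were not in it. These 37 include Psma6, Psmd5, Psmd9 and Psmf1 at their open starts. For comparison, 8158 of 16432 promoters were open. A match is a description of the letters and not evidence of binding.

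The ETS core CCGGAAG, the site of a transcription factor family that includes factors of lymphocytes and GABPA, was found in 15 of 37 open proteasome promoters (40.5%), against 22.3% of all open promoters. Only these exact letters were searched, so sites with any base changed were not counted. The matches were unevenly spread over the particles, a split that was not planned in advance. They were present in 9 of 14 promoters of 19S genes (64.3%), but in 1 of 11 promoters of 20S genes (9.09%), that of Psma6, with 3 of the 14 core genes not in the table. In 500 bases centred on the start, the counts were 17 of 37 members (45.9%) against 27.1%, with 10 of 14 for 19S genes and still 1 of 11 for 20S genes. The 10 matches of the 19S genes are shown, each with 12 bases on either side and the motif in capitals, on GRCm38.p6 and written 5' to 3' on the gene's strand, so that CTTCCGG is the motif on the other strand.
Psmc1, chr12:100110162-100110192, plus strand, match starting at -28 bp: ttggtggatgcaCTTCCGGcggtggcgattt
Psmc2, chr5:21786711-21786741, plus strand, match starting at -24 bp: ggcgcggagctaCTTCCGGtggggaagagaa
Psmc6, chr14:45329712-45329742, plus strand, match starting at -100 bp: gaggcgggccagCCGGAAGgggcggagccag
Psmd2, chr16:20651614-20651644, plus strand, match starting at -26 bp: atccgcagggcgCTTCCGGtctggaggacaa
Psmd4, chr3:95042721-95042751, minus strand, match starting at -125 bp: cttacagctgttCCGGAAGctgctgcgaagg
Psmd6, chr14:14120972-14121002, minus strand, match starting at -45 bp: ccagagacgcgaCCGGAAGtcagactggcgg
Psmd11, chr11:80428592-80428622, plus strand, match starting at -11 bp: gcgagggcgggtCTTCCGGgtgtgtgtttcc
Psmd12, chr11:107479499-107479529, plus strand, match starting at -17 bp: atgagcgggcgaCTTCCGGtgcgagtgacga
Psmd13, chr7:140882376-140882406, plus strand, match starting at -6 bp: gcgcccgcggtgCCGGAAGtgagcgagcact
Psmd14, chr2:61711729-61711759, plus strand, match starting at 47 bp: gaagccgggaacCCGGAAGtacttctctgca
In 9 of these 10 promoters the match began within 150 bp upstream of the RefSeq start, between 125 and 6 bp, and at Psmd14 it began 47 bp downstream. Those of Psmc1, Psmc2, Psmc6 and Psmd14 lay in a shared footprint, meaning that at least 80% of their bases did, and the other 6 did not. Over the 300-base promoters, 6 of 20 matches in the members (30.0%) and 29.8% of those in all open promoters lay in a shared footprint. The Psmc2 promoter shown begins 1464 bp downstream of its GENCODE 5' end, at a second RefSeq start with its own peak, whose signal was 5.69, 7.41, 7.38 and 3.81 (6.07 ± 1.71). The peak at the GENCODE 5' end of Psmc2, shared with Dnajc2, had 2.94, 4.92, 5.70 and 4.48 (4.51 ± 1.16).

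The antioxidant response element, bound by Nfe2l1 and Nfe2l2, was searched as TGACNNNGC. In the 300-base promoters it was no more frequent in the members (6 of 37, 16.2%) than in all open promoters (15.5%). In 500 bases centred on the start it was found in 17 of 37 members (45.9%), against 23.3% of all open promoters. The 500 bases extend the 300 bases on the downstream side only, so additional matches could lie nowhere else. Downstream of the start 13 members had at least 1 match (35.1%), against 11.7% of all open promoters. Both particles had downstream matches, in 5 of 11 promoters of 20S genes and 8 of 14 of 19S genes. Over the whole 500 bases the counts were 7 of 11 and 8 of 14. The element is shown for 10 members, among them the catalytic Psmb5 and Psmb6, with the motif in capitals in either orientation.
Psmb5, chr14:54618022-54618054, minus strand, match starting at -47 bp: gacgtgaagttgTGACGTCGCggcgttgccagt
Psmb6, chr11:70525336-70525368, plus strand, match starting at -9 bp: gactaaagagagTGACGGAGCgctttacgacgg
Psma2, chr13:14613431-14613463, plus strand, match starting at 201 bp: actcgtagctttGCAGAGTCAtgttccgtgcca
Psma3, chr12:70974721-70974753, plus strand, match starting at 110 bp: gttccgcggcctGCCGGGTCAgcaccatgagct
Psmc4, chr7:28050009-28050041, minus strand, match starting at 63 bp: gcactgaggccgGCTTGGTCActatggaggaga
Psmc5, chr11:106256352-106256384, plus strand, match starting at 179 bp: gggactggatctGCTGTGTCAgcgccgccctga
Psmd1, chr1:86064659-86064691, plus strand, match starting at 52 bp: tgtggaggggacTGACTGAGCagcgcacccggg
Psmd2, chr16:20651879-20651901, plus strand, match starting at 239 bp: aggaggccttggGCTGAGTCAct
Psmd12, chr11:107479711-107479743, plus strand, match starting at 195 bp: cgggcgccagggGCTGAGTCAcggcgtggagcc
Psmd13, chr7:140882486-140882518, plus strand, match starting at 104 bp: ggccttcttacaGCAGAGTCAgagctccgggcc
Of the 20 matches in the members, 2 lay in a shared footprint, against 241 of 2202 (10.9%) in all open promoters, a similar share. The 2 were those of Psmb5 at 47 bp and of Psmd9 at 31 bp upstream of the start. None of the 14 downstream matches lay in one. The footprinted share of downstream matches was not counted for all open promoters, so nothing is read from that count. In the Psmb5 promoter printed above, the footprint capitals run over the whole element. Across both motifs, Psma6, Psmc6, Psmd2, Psmd6, Psmd12, Psmd13 and Psme4 held an ETS core as well as an antioxidant response element. Each motif was present in 17 of the 37 members in 500 bases, so some overlap arises from these counts alone. The share of all open promoters with both was not counted, and nothing is read from the overlap.

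**Figure D4:**
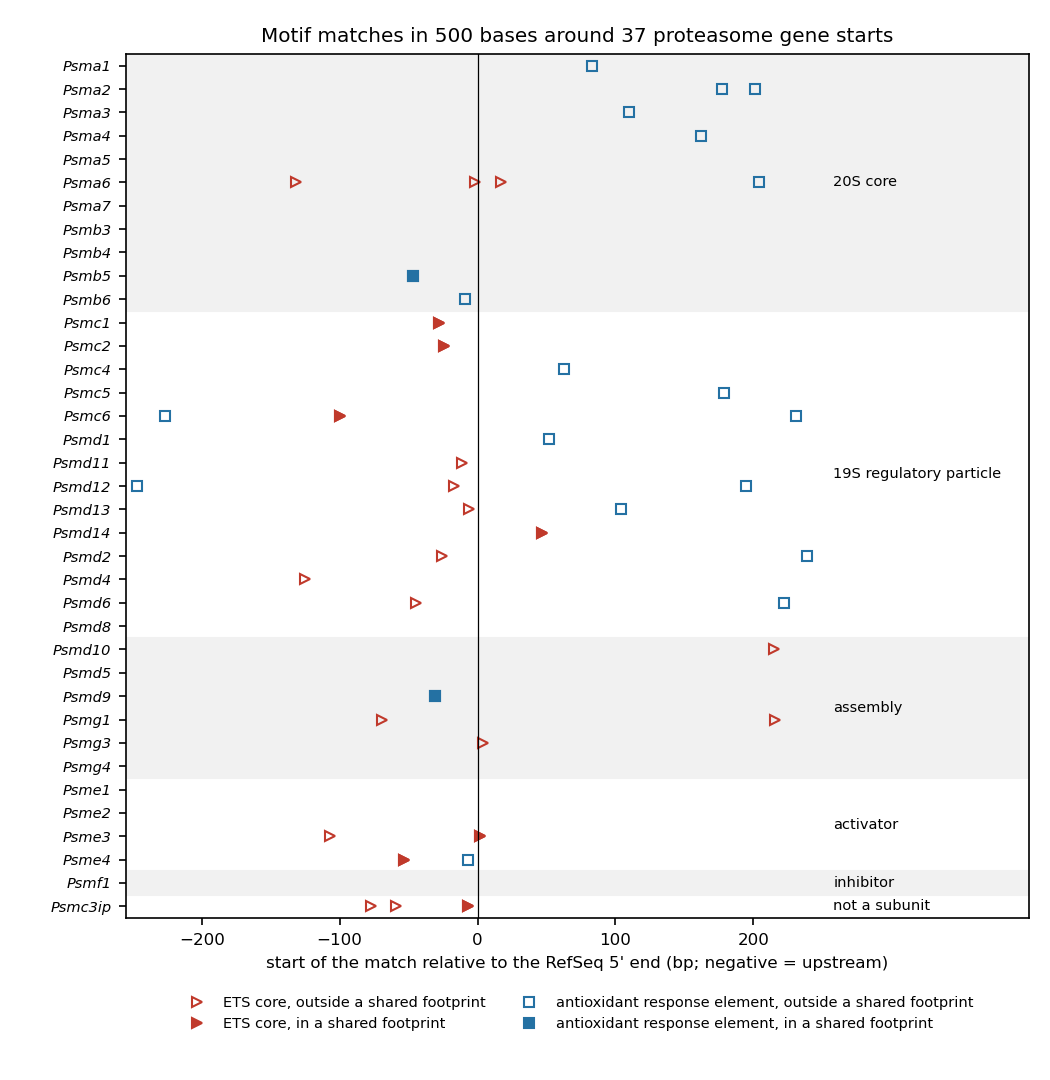
Position of ETS core matches (triangles) and antioxidant response element matches (squares) relative to the RefSeq start of the 37 open proteasome promoters, by class, in 500 bases centred on the start. Filled symbols lie in a shared footprint. Of the 10 ETS core matches in 19S genes 9 are upstream of the start. Of the 20 antioxidant response elements 14 are downstream, against 1015 of 2202 in all open promoters.

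The site of nuclear respiratory factor 1, searched as GCGCANGCG, was found in 7 of 37 members (18.9%) and in 16.9% of all open promoters. Of its matches, 7 of 10 in the members (70.0%) and 77.5% of those in all open promoters lay in a shared footprint. Overlapping matches on both strands were counted separately. The Psma2 promoter printed above holds it at 127 and 126 bp upstream of the start, as a palindrome inside the 49 bp footprint, and again at 190 bp upstream outside a shared footprint. Psma4, Psmc4, Psmc5 and Psmg1 also held a footprinted match, and Psma3 and Psmd14 held one that a shared footprint covered by less than 80% of its bases.

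The SP motif GGGCGG was found in 22 of 37 members (59.5%), against 70.8% of all open promoters, and the CCAAT box in 11 (29.7%), against 40.3%. The full cyclic AMP response element TGACGTCA was found in 0 of 37 members and in 4.01% of all open promoters. The TATA box TATAAA was present in 3 members (8.11%), against 5.52%, and the YY1 motif AAGATGGCG in 2 (5.41%), against 3.98%. Promoters of the members had a median GC content of 59.0%, against 62.0% for all open promoters, and 16.1% of their bases lay in a shared footprint, against 14.6%.

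The core of the interferon-stimulated response element, GAAANNGAA, was found in 7 of 37 members (18.9%), namely Psmb3, Psmb4, Psmc2, Psmd4, Psmd9, Psme1 and Psmg4, against 6.75% of all open promoters. In the 500-base window it was present in 10 members, with Psme2, Psmc5 and Psmf1 added, against 9.54%. Of these the match of Psmb4 lay in a shared footprint, and those of the interferon-inducible Psme1 and Psme2, at 10 and 155 bp downstream of the start, did not. The interferon gamma activated site TTCNNNGAA was present in 2 members (5.41%), against 6.73% of all open promoters. The Psmb10 promoter in the table overlapped a peak in 1 library only and was left out of these counts.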

How the data were processed

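DNase-seq was measured in 4 libraries of 1 group, taken from the labels. Per the deposited readmes, the authors derived each library's peaks, bases of low false discovery rate (FDR) and footprints from its own filtered mm10 alignments. The aligner and callers are not named in the sources used here, nor are versions or settings. The authors' signal value per peak has no stated scale between libraries. The authors' FDR, a q-value, is listed only below 0.05, and the footprint p-value column holds a constant of 0.01. The 2 peak lists of a library differ in length, and the longer was used. The reads per library are unknown. B6 and CAST alleles were both mapped to mm10, and their mapping was not measured.

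From these files, each gene of GENCODE M21 (unique names, chromosomes 1 to 19 plus X) received the strongest peak within 1 kb of its 5' end. Peaks of the 4 libraries that touched were merged into regions for position and width. Motifs were matched by letters in RefSeq promoters (16432 genes, all equal to the genome sequence of the same build), using for each gene the listed start with the highest signal. Python 3.11.15, pandas 2.3.3, numpy 2.4.6, SciPy 1.17.1, pysam 0.24.0, bedtools 2.31.1, samtools 1.23.1 and matplotlib 3.10.9 were used. Peak assignment was tested on simulated data.

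The members and lists were chosen with earlier results of these data known. Values in every library are given for the 5 highest and 5 lowest open members, members without a peak, the catalytic, tissue-specific and PA28 genes, the extremes of each class and the 5 members with the most footprints. Psmd9, Psmd5, Psma6 and Psmf1 at other starts belong to these. The genes printed with sequences were chosen after their values were seen, as was the 500-base window for motifs other than the ETS core. The counts of the ETS core by particle were also not planned. Alternatives are given at the end. The cell type marker list holds 1 further gene that is not reported here.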

Additional observations from a re-analysis of the deposited data

Results flagged for a closer look

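The 4 values of a member were looked at for a single library far from the others, where the gap of the extreme library to its neighbour as a share of the whole range exceeds Dixon's critical value for 4 values. Chance flags about 1 in 20 groups of 4, and 10 of 90 were flagged here (11.1%). For promoter signal these were Psmg2, with library 4 low at 1.78 and a ratio of 0.958, Psmc1, with library 3 high at 3.84 and a ratio of 0.861, and Psma5, with library 3 high at 12.3 and a ratio of 0.853. For footprint counts, Psme3 had a ratio of 0.833, with 19 footprints in library 3 against 7 to 9 in the others. Psmb4, Psma5, Psmd8, Psmb10, Psma4 and Psmg4 had a ratio of 1, in each case because 3 libraries had the same whole number of footprints. Library 3 had the most peaks and footprints of the 4 libraries and library 4 the fewest, and the part of this in the values was not tested.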

How the results depend on the processing

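The count of open members was 41 with the shorter peak list, within 500 bp of the 5' end, in at least 1 library, in all 4 libraries, with the 36247 strongest peaks of each library, and without each library in turn, and 45 with any annotated transcript start. The footprint count was 41 under each alternative run. The regions covering the 5' end numbered 37 to 38 without 1 library and 45 with any transcript start. Leaving out 1 library gave a median signal of 5.16 to 5.97 and a ratio of 20S to 19S medians of 0.818 to 0.843. Dividing signals by the library median put the median signal on another scale, at 1.29 times that of all open genes. The ratio of means was 1.02, which reversed the order of the particles, and the cause was not tested. Of the motif counts, that of the antioxidant response element was 17 in the 500-base window, an alternative chosen after seeing the data, and 6 in 300 bases. No paired analysis was possible because there is only 1 group. Without read numbers, a promoter with no listed peak may still be weakly accessible, and signals of different libraries share no stated scale.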
